A study of Mus musculus with 12 samples.

Results

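Rap1 is a small GTPase of the Ras family, and the genes described here are its 2 forms together with the regulators and effectors that act directly on them. The members were taken by name from the deposited gene tables: the GTPases Rap1a and Rap1b, the exchange factors Rapgef1, Rapgef3, Rapgef4 and Rapgef5, the GTPase-activating proteins Rap1gap and Sipa1, and the effectors Rasip1 and Apbb1ip. All 10 were among the 17920 listed genes, and all 10 passed the filter on low levels that left 13735 genes for testing. By RefSeq GRCm38.p6 the GTPase genes are Rap1a (gene ID 109905) at chr3:105727260-105801394 and Rap1b (gene ID 215449) at chr10:117814597-117845974. The exchange factor genes are Rapgef1 (gene ID 107746) at chr2:29619720-29740364, Rapgef3 (gene ID 223864) at chr15:97744770-97768419, Rapgef4 (gene ID 56508) at chr2:71981215-72257474 and Rapgef5 (gene ID 217944) at chr12:117516526-117759737. The GTPase-activating protein genes are Rap1gap (gene ID 110351) at chr4:137664711-137729861 and Sipa1 (gene ID 20469) at chr19:5651185-5663722, and the effector genes Rasip1 (gene ID 69903) at chr7:45627537-45639092 and Apbb1ip (gene ID 54519) at chr2:22755971-22875653.

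Exchange factors load Rap1 with GTP, GTPase-activating proteins make it hydrolyse that GTP, and only GTP-bound Rap1 engages its effectors. In leukocytes and platelets Rap1 is known for inside-out activation of integrins, and in vascular endothelium for tightening cell junctions, in part downstream of cyclic AMP. This switch is set on the protein, so RNA levels report the supply of its parts and not how much Rap1 is active.

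Lungs of male BALB/c mice aged 6 to 8 weeks were profiled by sequencing of polyadenylated RNA after 14 days of modelling. There were 12 libraries, 3 mice from each of 4 groups of 6: LPS+bLF, which received both agents, LPS, bLF and an untreated control. LPS is lipopolysaccharide, a Gram-negative cell wall component that provokes lung injury, and its dose was 50 µL at 1 µg/µL. The daily dose of bovine lactoferrin (bLF), a milk glycoprotein that binds iron, was 200 mg/kg. The labels give neither the route of LPS nor its day. The labels describe the LPS group as lung injury and the LPS+bLF group as its treatment, so the comparisons ask what injury did, what bLF did alone, and what bLF did in injured lungs.

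Total counts ran from 16714327 to 17820645 per library. LPS replicate 1 stood apart, with the lowest median correlation with the other libraries (0.942) and a summed level of 7 NK cell markers of 10.3 FPKM, against 249 and 214 FPKM in the other LPS libraries. LPS+bLF replicates 2 and 3 followed, with median correlations of 0.964 and 0.969. Their 5 skeletal muscle markers summed to 180 and 3209 FPKM, against 7.12 FPKM in LPS+bLF replicate 1. Their 4 brown fat markers summed to 776 and 0.83 FPKM, and their 4 squamous epithelium markers to 1.17 and 774 FPKM. Such markers were not particular to LPS+bLF. Brown fat markers summed to 483 FPKM in control replicate 1 and 226 FPKM in bLF replicate 1, where skeletal muscle markers reached 157 FPKM. The 5 cardiac muscle markers summed to 4377 FPKM in bLF replicate 1, 3444 FPKM in LPS+bLF replicate 2 and 816 FPKM in control replicate 1, against 38.6 FPKM in control replicate 3. In control replicate 2, Scgb1a1, the club cell secretory protein, took 23.8% of all counts. The FPKM of control replicate 2 also summed to 1817592, above the other libraries, and 5 of the 10 members had their lowest FPKM in it. The 12 endothelial markers were all present in every library and summed to between 2772 and 5053 FPKM. Levels below are FPKM, which scale fragments by gene length and library size. In bulk tissue, fewer cells of a type and less RNA per cell cannot be told apart.

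No member changed in any of the 6 comparisons by edgeR's quasi-likelihood test at a Benjamini-Hochberg adjusted p under 0.05. The same test called 0 of the 13735 genes in each comparison, a background of 0%. DESeq2 called 139 genes for LPS against control and 1 to 13 in each of the other comparisons, and none of them was a member. The smallest adjusted p of a member under any setting with all 12 libraries was 0.394, for Apbb1ip by DESeq2 in LPS against control. What follows gives the members' levels, the intervals on their differences and their common variation between animals.

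**Figure D1:**
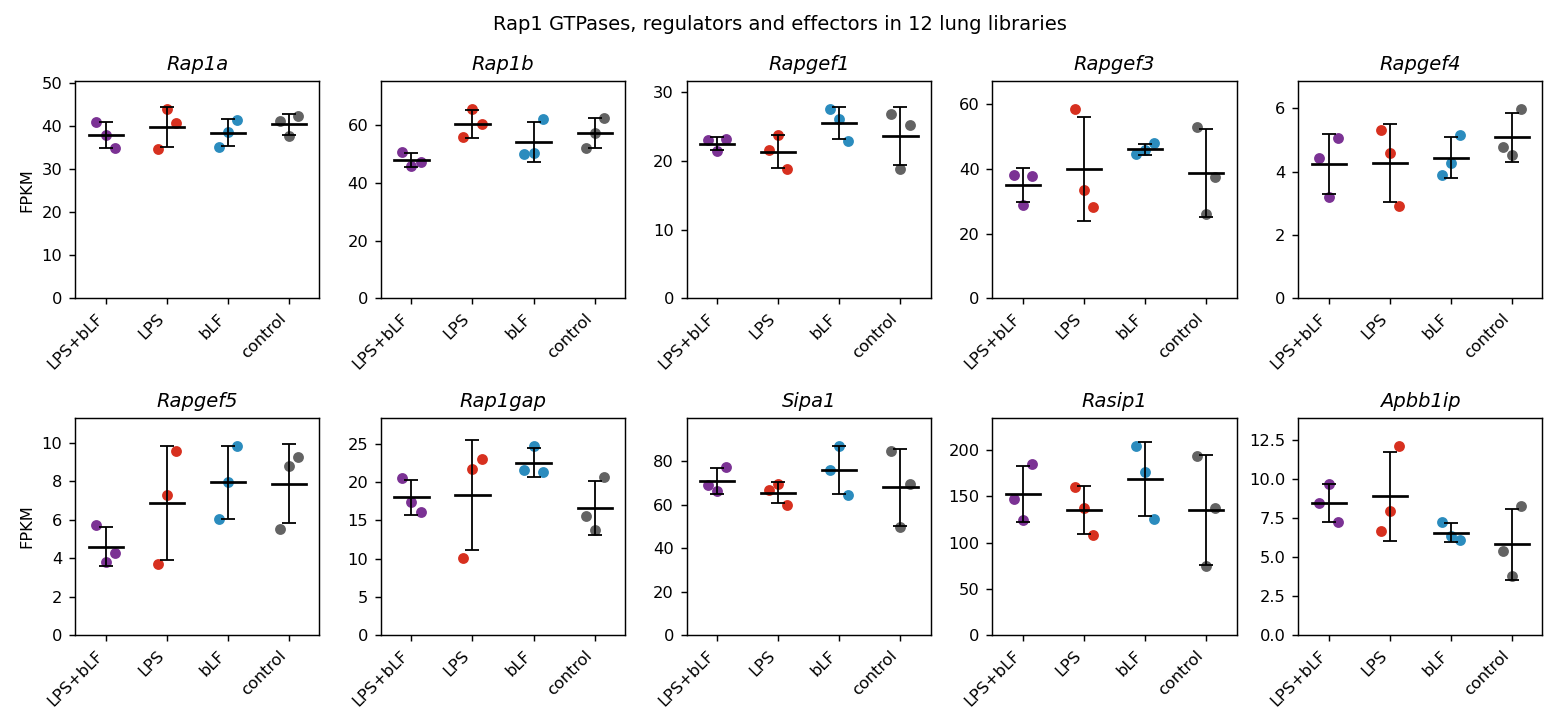
FPKM of each member (y axis, from 0, own scale per gene) in the 12 libraries, with groups along the x axis; points are libraries in replicate order, long lines are means and bars are SD (n = 3). Rap1a stays between 34.8 and 43.9 in all libraries, while Rap1b lies lower in the 3 LPS+bLF libraries than in every LPS or control library.

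The effector Rasip1, which endothelial cells use for vessel lumen formation and barrier function, was the most abundant member, with a mean of 148 FPKM over the 12 libraries. Sipa1, at 69.9 FPKM, and Rap1b, at 54.8 FPKM, came next. Rapgef3, at 40.0 FPKM, and Rap1a, at 39.2 FPKM, were not separable, since Rapgef3 was the higher of the pair in only 6 of 12 libraries. Rapgef1 averaged 23.2 FPKM and Rap1gap 18.9 FPKM, in that order in 11 of 12 libraries. Apbb1ip, at 7.45 FPKM, and Rapgef5, at 6.82 FPKM, kept their order in 7 of 12 libraries, so they too were level within their spread. Rapgef4 was lowest at 4.52 FPKM. The orders Rasip1 over Sipa1, Rap1a over Rapgef1, and Rap1gap over Apbb1ip held in all 12 libraries. Sipa1 exceeded Rap1b in 10 of 12 libraries, as did Rap1b over Rapgef3 and Rapgef5 over Rapgef4.

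Rap1a and Rap1b are close paralogues, so their coding sequences bear on whether reads could be assigned to the right one. In GENCODE release M21, both reading frames had 552 bases without the stop codon. They differed at 101 bases, 78 of them at the third position of a codon, and were 81.7% identical. The first 180 coding bases, with the 27 bases that differ in capitals, show how these differences are spread.

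Rap1a: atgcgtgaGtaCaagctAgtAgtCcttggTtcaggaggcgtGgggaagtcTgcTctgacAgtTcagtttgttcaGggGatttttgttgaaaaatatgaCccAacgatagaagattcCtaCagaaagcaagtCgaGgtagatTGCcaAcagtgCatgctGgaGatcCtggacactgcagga

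Rap1b: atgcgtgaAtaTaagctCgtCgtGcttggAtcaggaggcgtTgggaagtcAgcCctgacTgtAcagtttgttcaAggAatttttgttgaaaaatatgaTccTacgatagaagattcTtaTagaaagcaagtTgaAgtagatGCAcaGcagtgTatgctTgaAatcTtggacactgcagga

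The longest identical stretch of the frames was 20 bases, and the transcripts of Rap1a and Rap1b shared 0 words of 31 bases. Of the 31-base words of Rap1a, 13.1% also occurred in other genes, mainly the pseudogenes Gm9392 and Rap1a-ps2. Neither pseudogene is among the listed genes. That percent is a share of distinct words in annotated transcripts, not of reads, so how much of the Rap1a count is affected was not measured. No word of Rap1b occurred in another gene.

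Rap1a was the steadiest member. Its biological coefficient of variation (the spread between animals beyond counting noise) was 0.159, at percentile 2.2 of all tested genes. It had 41.0, 38.0 and 35.0 FPKM in the LPS+bLF lungs, 34.8, 43.9 and 40.8 FPKM in the LPS lungs, 35.2, 38.7 and 41.5 FPKM in the bLF lungs, and 41.2, 37.7 and 42.4 FPKM in the control lungs. The ranges of all 4 groups overlapped. For LPS against control, the log2 fold change of Rap1a was 0.02 with a 95% interval from −0.26 to 0.30, the narrowest interval of the members. Over the 12 libraries Rap1a had a Spearman's correlation of 0.846 with the endothelial list (permutation p = 0.00087, adjusted p = 0.0696 over 160 relations). Pearson's r there was 0.626 (p = 0.0264, adjusted p = 0.284). With the alveolar epithelium list Spearman's correlation was 0.741 (p = 0.00789, adjusted p = 0.135). The smallest Pearson p of Rap1a was with the squamous epithelium list, at r = −0.540 (permutation p = 0.00484, adjusted p = 0.132). Pearson's r was 0.649 with the NK cell list (p = 0.0154, adjusted p = 0.276) and −0.555 with the skeletal muscle list (p = 0.0365, adjusted p = 0.307). Spearman's correlation with these lists was −0.517, 0.580 and −0.469 in turn. The part of these lists in the Rap1a values was not tested.

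Rap1b had 50.5, 45.9 and 47.1 FPKM in the LPS+bLF lungs, against 55.6, 65.3 and 60.1 FPKM in the LPS lungs. It had 49.9, 50.3 and 61.8 FPKM in the bLF lungs and 52.0, 57.0 and 62.2 FPKM in the control lungs. In FPKM, all 3 LPS+bLF libraries thus lay below every LPS library and every control library. In TMM-scaled CPM (counts scaled to library size) control replicate 1, at 81.2, lay below the LPS+bLF libraries, at 83.6, 81.4 and 81.3. LPS+bLF and control thus overlapped on that scale, while the LPS libraries, at 112, 102 and 99.5, stayed above. Rap1b was the only one of 10 members whose FPKM did not overlap between LPS+bLF and LPS, where 9.06% of tested genes did not overlap. It was also the only one for LPS+bLF against control, where the background was 11.7%. By edgeR the difference between LPS+bLF and LPS was −0.34 ± 0.15 on the log2 scale (SE, n = 3 each, unadjusted p = 0.042, adjusted p = 0.689), and 6.92% of all genes had an unadjusted p under 0.05 in that comparison. With any 1 library left out it ran from −0.407 to −0.288, with unadjusted p from 0.0353 to 0.0891. Markers of other tissues and cells also differed between the same groups. The 4 tested skeletal muscle markers were all higher in LPS+bLF, with a median log2 fold change of 5.94. So were 7 of 7 B cell markers (median 1.29) and 4 of 4 brown fat markers (median 8.76). The brown fat markers summed to 1.24, 776 and 0.83 FPKM in LPS+bLF and 0.77, 1.13 and 1.86 FPKM in LPS, so their difference came from LPS+bLF replicate 2. The skeletal muscle markers summed to 7.12, 180 and 3209 FPKM in LPS+bLF. Over the 12 libraries Rap1b ran against the skeletal muscle list (r = −0.598, permutation p = 0.0156, adjusted p = 0.276; Spearman's correlation = −0.713, p = 0.0116, adjusted p = 0.169; r = −0.468 without the 2 farthest libraries). Rap1b moved with the endothelial list at r = 0.615 (permutation p = 0.0317, adjusted p = 0.298). Spearman's correlation there was 0.629 (p = 0.032, adjusted p = 0.279), and r was 0.337 without the 2 farthest libraries. With group means removed, r was 0.735 for the endothelial list and −0.311 for the skeletal muscle list. Of the 12 endothelial markers, 11 were lower in LPS+bLF than in LPS (median −0.195). The part of all these markers in the Rap1b values was not tested.

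The pair can also be read as the share that Rap1b held of their summed FPKM. That share was 55.2, 54.7 and 57.4% in the LPS+bLF lungs, against 61.5, 59.8 and 59.6% in the LPS lungs. The bLF lungs averaged 58.3 ± 1.66% and the control lungs 58.5 ± 2.33% (SD, n = 3). LPS+bLF averaged 55.8 ± 1.41% and LPS 60.3 ± 1.04%, a difference of −4.53 percentage points with no overlap. The two-sided exact permutation test gave p = 0.1, the smallest that 3 against 3 libraries allow, and 0.333 after Benjamini-Hochberg adjustment over the 5 pairwise comparisons.

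**Figure D2:**
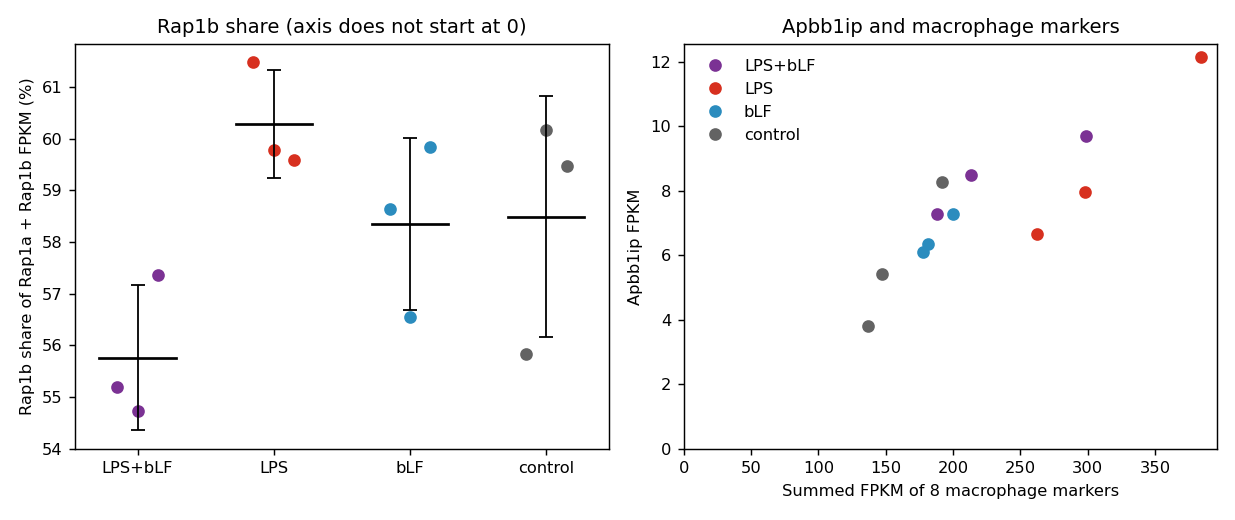
Left, Rap1b as a percent of Rap1a plus Rap1b FPKM by group (points are libraries, lines means, bars SD, n = 3; the axis does not start at 0): the LPS+bLF points, at 54.7 to 57.4%, lie below the LPS points, at 59.6 to 61.5%. Right, Apbb1ip FPKM (y axis) against the summed FPKM of 8 macrophage markers (x axis), 1 point per library coloured by group: LPS replicate 3 is highest on both axes and control replicate 2 lowest on both.

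Among the exchange factors, Rapgef1, which Crk adaptors bring to the membrane, varied little, from 18.8 to 27.4 FPKM over the 12 libraries. Its group means were 22.5 ± 0.984 FPKM in LPS+bLF, 21.3 ± 2.43 FPKM in LPS, 25.4 ± 2.31 FPKM in bLF and 23.6 ± 4.21 FPKM in control lungs (SD, n = 3). Every pair of groups overlapped, and the 95% intervals of its 5 pairwise log2 differences lay within −0.48 to 0.47.

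Rapgef3 and Rapgef4 encode Epac1 and Epac2, the exchange factors that cyclic AMP opens directly. Rapgef3 supplied 85.2 to 91.9% of their summed FPKM in the 12 libraries, so Epac1 was the main Epac transcript of these lungs. Rapgef3 had 38.2, 29.0 and 37.8 FPKM in the LPS+bLF lungs, 58.4, 33.5 and 28.4 FPKM in the LPS lungs, 44.5, 45.8 and 47.9 FPKM in the bLF lungs, and 53.1, 26.0 and 37.6 FPKM in the control lungs. The bLF libraries lay close together and all above the LPS+bLF libraries, while the LPS and control libraries spanned nearly the whole range. The log2 fold change for LPS+bLF against bLF was −0.39 ± 0.31 (SE, n = 3 each, unadjusted p = 0.229 and adjusted p = 1.00 by edgeR). For LPS against control it was 0.15 ± 0.31, and without LPS replicate 1 it was −0.37. Rapgef4 ranged from 2.93 to 5.97 FPKM, with means of 4.24 ± 0.950 FPKM in LPS+bLF, 4.28 ± 1.22 FPKM in LPS, 4.45 ± 0.653 FPKM in bLF and 5.09 ± 0.771 FPKM in control lungs (SD, n = 3). The Rapgef3 and Rapgef4 loci each carry antisense genes that overlap 3.72 to 5.54% of their exonic bases in the GENCODE annotation, and no strand setting is given in the sources used here.

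Rapgef5, a further Rap exchange factor, had the largest estimated differences of the members. It had 5.74, 3.79 and 4.25 FPKM in the LPS+bLF lungs, 3.71, 7.31 and 9.57 FPKM in the LPS lungs, 6.05, 7.96 and 9.83 FPKM in the bLF lungs, and 5.52, 8.82 and 9.28 FPKM in the control lungs. All LPS+bLF libraries lay below all bLF libraries, LPS replicate 1 was the lowest of the 12, and control replicate 1 fell within the LPS+bLF range. By edgeR the log2 fold change was −0.76 ± 0.32 for LPS+bLF against control (SE, n = 3 each, unadjusted p = 0.0377, adjusted p = 0.832). Against bLF it was −0.78 ± 0.32 (unadjusted p = 0.034, adjusted p = 1.00). In those comparisons 4.81% and 2.66% of all genes had an unadjusted p under 0.05. Against LPS it was −0.55 ± 0.32, with a 95% interval from −1.26 to 0.15. With any 1 library left out the difference from bLF ran from −0.951 to −0.570, with unadjusted p from 0.0181 to 0.131. The difference from control then ran from −0.972 to −0.582, with unadjusted p from 0.0109 to 0.129. Over the 12 libraries the level of Rapgef5 moved with the endothelial marker list (r = 0.755, permutation p = 0.00311, 0.124 after adjustment over the 160 relations of members with marker lists; Spearman's correlation = 0.650, p = 0.0254, adjusted p = 0.269; r = 0.642 without the 2 farthest libraries). It also moved with the airway epithelium list (r = 0.669, permutation p = 0.0156, adjusted p = 0.276; Spearman's correlation = 0.755, p = 0.00675, adjusted p = 0.135; r = 0.567 without the 2 farthest libraries). Against the squamous epithelium list it ran the other way (r = −0.450, permutation p = 0.0995, adjusted p = 0.442; Spearman's correlation = −0.692, p = 0.0156, adjusted p = 0.208; r = −0.713 without the 2 farthest libraries). The endothelial list summed to 2772 to 3714 FPKM in LPS+bLF, 3228 to 4522 FPKM in LPS, 3669 to 5053 FPKM in bLF and 3239 to 4255 FPKM in control lungs, and the part of these lists in the Rapgef5 values was not tested.

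**Figure D3:**
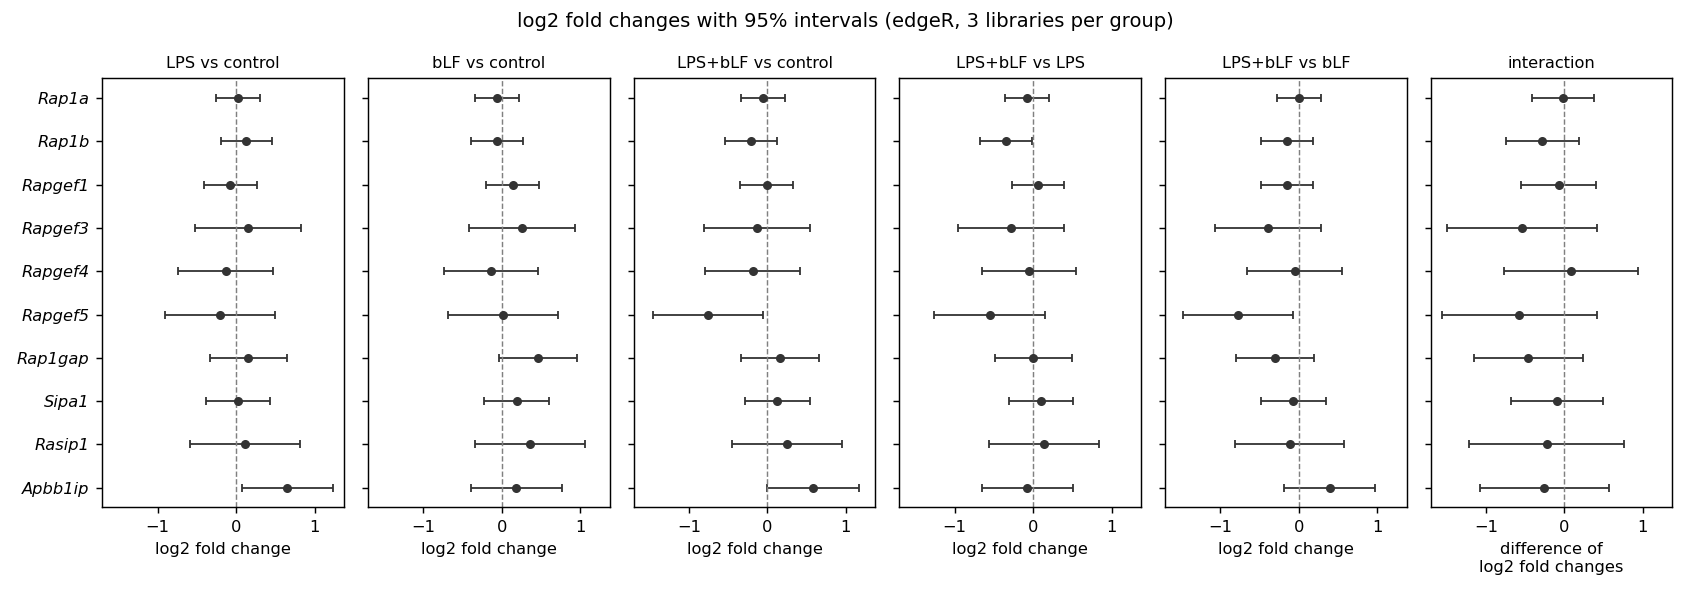
log2 fold change of each member (x axis, same scale in all panels) with its 95% interval from edgeR, 3 libraries per group, in the 5 pairwise comparisons and the interaction (the bLF effect with LPS minus that without). The intervals that exclude 0 before adjustment are these: Apbb1ip for LPS against control, Rapgef5 for LPS+bLF against control and against bLF, and Rap1b for LPS+bLF against LPS.

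The GTPase-activating proteins switch Rap1 off. Rap1gap had 20.5, 17.4 and 16.1 FPKM in the LPS+bLF lungs, 10.1, 21.8 and 23.0 FPKM in the LPS lungs, 21.6, 24.7 and 21.3 FPKM in the bLF lungs, and 15.6, 13.8 and 20.6 FPKM in the control lungs. The bLF libraries lay above all control libraries and all LPS+bLF libraries, and LPS replicate 1 was lowest of all. Rap1gap was the 1 member of 10 whose FPKM did not overlap between bLF and control, where 7.95% of tested genes did not overlap. Its log2 fold change there was 0.46 ± 0.23 (SE, n = 3 each, unadjusted p = 0.0653 and adjusted p = 1.00 by edgeR). No member had an unadjusted p under 0.05 by edgeR for bLF against control, where 1.38% of genes did, while DESeq2 gave Rap1gap 0.0473 (adjusted p = 1.00). Other settings gave larger p: the unadjusted p was 0.112 by edgeR with upper-quartile scaling and 0.146 by limma at a pseudocount of 1. With any 1 library left out the estimate ran from 0.380 to 0.616, with unadjusted p from 0.00974 to 0.160 by edgeR. The smallest came without LPS replicate 1, which belongs to neither group but shares the fit (adjusted p = 0.959). The largest came without control replicate 1. Over the 12 libraries Rap1gap moved with the NK cell markers (r = 0.788, permutation p = 0.0019, adjusted p = 0.101; Spearman's correlation = 0.762, p = 0.00584, adjusted p = 0.135; r = 0.580 without the 2 farthest libraries) and with the alveolar epithelium markers (r = 0.781, permutation p = 0.00495, adjusted p = 0.132; Spearman's correlation = 0.629, p = 0.0321, adjusted p = 0.279; r = 0.586 without the 2 farthest libraries). LPS replicate 1, lowest for Rap1gap, also had the lowest NK cell marker sum. The NK cell markers summed to 74.4 to 90.5 FPKM in LPS+bLF, 10.3 to 249 FPKM in LPS, 66.9 to 97.3 FPKM in bLF and 54.9 to 68.8 FPKM in control lungs, and their part in the Rap1gap values was not tested.

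Sipa1 (SPA-1, best known in haematopoietic cells) was the more abundant of these proteins' transcripts and made up 72.3 to 86.9% of the summed Sipa1 and Rap1gap FPKM. It averaged 70.8 ± 5.90 FPKM in LPS+bLF, 65.4 ± 4.83 FPKM in LPS, 75.8 ± 11.2 FPKM in bLF and 67.9 ± 17.5 FPKM in control lungs (SD, n = 3). The control libraries held 84.5, 49.6 and 69.4 FPKM and so spanned nearly the range of all 12. No pair of groups was separated.

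Rasip1 had 147, 124 and 184 FPKM in the LPS+bLF lungs, 160, 137 and 108 FPKM in the LPS lungs, 204, 176 and 125 FPKM in the bLF lungs, and 193, 74.5 and 138 FPKM in the control lungs. All groups overlapped, and the control libraries alone differed by more than the group means did. The highest library exceeded the lowest by a factor of 2.74 in FPKM and of 2.46 in TMM-scaled CPM (counts scaled to library size), so the low FPKM of control replicate 2 was only partly lost under that scaling. Its log2 fold change for LPS against control was 0.11 ± 0.32 and turned to −0.17 without LPS replicate 1. In the GENCODE annotation 20.4% of the exonic bases of Rasip1 are shared on the same strand with Izumo1, listed at no more than 0.22 FPKM here. Antisense genes overlap a further 15.6% and 6.93% of its exonic bases.

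Apbb1ip encodes RIAM, the adaptor that links GTP-bound Rap1 to talin and so to integrin activation in leukocytes. It had 8.48, 9.68 and 7.28 FPKM in the LPS+bLF lungs, 6.67, 7.95 and 12.1 FPKM in the LPS lungs, 7.29, 6.34 and 6.11 FPKM in the bLF lungs, and 5.42, 3.80 and 8.28 FPKM in the control lungs. Control replicate 3 lay within the LPS and LPS+bLF ranges, so neither separated from control. For LPS against control the log2 fold change was 0.65 ± 0.26 (SE, n = 3 each, unadjusted p = 0.0313, adjusted p = 0.665 by edgeR), and 7.14% of all genes had an unadjusted p under 0.05 there. Apbb1ip was the 1 member of 10 that did, and 0 of 10 members had FPKM that did not overlap, against 7.93% of genes. Without LPS replicate 3 the estimate was 0.400 (unadjusted p = 0.152), and without control replicate 3 it was 0.967 (unadjusted p = 0.0036). In LPS+bLF against control it was 0.58 ± 0.26 (unadjusted p = 0.0513, adjusted p = 0.832 by edgeR). With any 1 library left out it ran from 0.406 to 0.892, the highest without control replicate 3, and the unadjusted p ran from 0.00576 to 0.172.

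Markers of several leukocyte classes moved with Apbb1ip. The 8 macrophage markers, all present in every library, summed to 188 to 299 FPKM in LPS+bLF, 262 to 384 FPKM in LPS, 178 to 200 FPKM in bLF and 137 to 192 FPKM in control lungs. The 8 leukocyte markers summed to 795 to 1135 FPKM in LPS+bLF, 894 to 1009 FPKM in LPS, 546 to 684 FPKM in bLF and 567 to 649 FPKM in control lungs. Over the 12 libraries Apbb1ip correlated with the macrophage list at r = 0.800 (permutation p = 0.00157, adjusted p = 0.101 over 160 relations) and Spearman's correlation = 0.825 (p = 0.00157, adjusted p = 0.0696). Without the 2 farthest libraries r was 0.732, and with group means removed it was 0.919. With the leukocyte list it was r = 0.789 (permutation p = 0.00089, adjusted p = 0.101), Spearman's correlation = 0.818 (p = 0.00174, adjusted p = 0.0696), and r = 0.614 without the 2 farthest libraries. The T cell list reached the same Spearman's correlation as the macrophage list, 0.825 (permutation p = 0.00141, adjusted p = 0.0696), with r = 0.567 (p = 0.0567, adjusted p = 0.354) and r = 0.801 without the 2 farthest libraries. Spearman's correlation was 0.741 with the B cell list (permutation p = 0.00731, adjusted p = 0.135) and 0.678 with the NK cell list (p = 0.0186, adjusted p = 0.229), where r was 0.484 (p = 0.108, adjusted p = 0.448) and 0.467 (p = 0.122, adjusted p = 0.448). Without the 2 farthest libraries these r were 0.493 and 0.727. The neutrophil list did not move with Apbb1ip (r = −0.176, permutation p = 0.553, adjusted p = 0.851). Spearman's correlation there was −0.0350 (p = 0.921, adjusted p = 0.963), and r was 0.249 without the 2 farthest libraries. With group means removed, r was 0.657 for the leukocyte list, 0.626 for T cells, 0.657 for B cells, 0.477 for NK cells and −0.424 for neutrophils. None of the 160 relations passed an adjusted p of 0.05. The part of these cells in the Apbb1ip values was not tested.

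Read across the members, the comparisons did not share a direction that stood out. For LPS against control 7 of 10 members were higher, with a median log2 difference of 0.07, against −0.04 over all tested genes. For bLF against control 7 of 10 were higher (median 0.16, all genes −0.03). For LPS+bLF against LPS 6 of 10 were lower (median −0.06, all genes −0.02), and for LPS+bLF against control 6 of 10 were lower (median −0.03, all genes 0.00). Against bLF, 8 of 10 members were lower in LPS+bLF (median −0.13, all genes 0.01). Rapgef3, Rapgef5 and Rap1gap had FPKM that did not overlap between LPS+bLF and bLF, all lower in LPS+bLF. That was 3 of 10 members, where 12.0% of all genes did not overlap in either direction and 6.87% were lower in this way. These comparisons share libraries, so their counts are not separate evidence.

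The interaction asks whether the bLF effect with LPS differed from the bLF effect without it. It was negative for 9 of 10 members, with a median of −0.24, against 0.02 over all tested genes, and Rapgef4 was the exception at 0.08. Regardless of sign, the median size was 0.243 for the members and 0.264 for all tested genes. The estimates of Rap1a, Rapgef1, Rapgef4, Sipa1 and Rasip1 changed sign with a single library left out. Rasip1, Sipa1 and Rapgef1 also varied together, so the members' signs are not separate evidence. The members with the most negative values were Rapgef5 at −0.57 ± 0.45, Rapgef3 at −0.54 ± 0.43 and Rap1gap at −0.46 ± 0.32 (SE). The 95% interval of every member included 0, no member had an unadjusted p under 0.05 where 2.80% of genes did, and all adjusted p were 1.00 by edgeR.

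**Figure D4:**
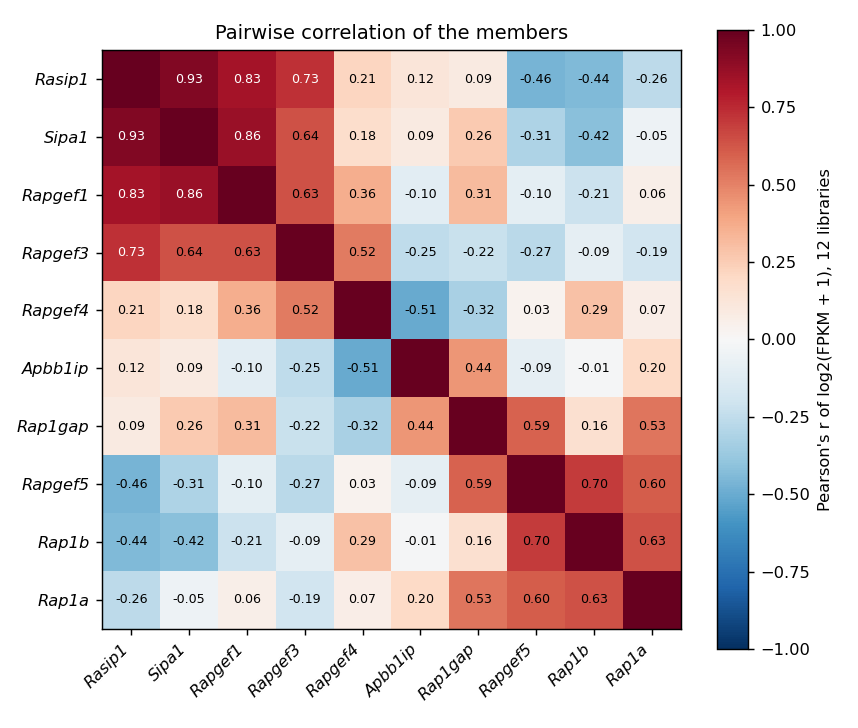
Pearson's r of log2(FPKM + 1) between each pair of members over the 12 libraries (colour and printed value). Rasip1, Sipa1 and Rapgef1 form a block with r from 0.83 to 0.93, followed by Rapgef3 with Rasip1 at 0.73 and Rap1b with Rapgef5 at 0.70.

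Some members varied together between animals. Of the 45 pairs, 3 passed a Benjamini-Hochberg adjusted p of 0.05 by both Pearson's and Spearman's correlation, and they joined Rasip1, Sipa1 and Rapgef1. Sipa1 and Rasip1 had r = 0.927 (permutation p = 6e-05, adjusted p = 0.0027) and Spearman's correlation = 0.867 (p = 0.00048, adjusted p = 0.0108). Rapgef1 and Sipa1 had r = 0.860 (permutation p = 0.0003, adjusted p = 0.00675) and Spearman's correlation = 0.895 (p = 0.00022, adjusted p = 0.0099). Rapgef1 and Rasip1 had r = 0.834 (permutation p = 0.00047, adjusted p = 0.00705) and Spearman's correlation = 0.839 (p = 0.00114, adjusted p = 0.0171). Without the 2 libraries farthest from the median r was 0.898, 0.738 and 0.664 for these pairs in turn, and with group means removed it was 0.922, 0.889 and 0.909. On TMM-scaled CPM it was 0.928, 0.825 and 0.837. All 3 genes had their lowest FPKM in control replicate 2, where Scgb1a1 took its large share of counts. Rasip1 did not track the endothelial marker list (r = 0.0980, permutation p = 0.759, adjusted p = 0.927; Spearman's correlation = 0.0769, p = 0.818, adjusted p = 0.905; r = 0.0345 without the 2 farthest libraries). All 3 genes ran against the neutrophil list, with Spearman's correlation of −0.748 for Rapgef1, −0.734 for Sipa1 and −0.622 for Rasip1. Pearson's r there was −0.496, −0.506 and −0.342 in turn. With the airway epithelium list r was −0.276, −0.539 and −0.585 in turn. It was −0.774, −0.844 and −0.830 with group means removed, and −0.0534, −0.327 and −0.164 without the 2 farthest libraries. None passed an adjusted permutation p of 0.05, and the part of these lists was not tested. The next pair, Rapgef3 and Rasip1, had r = 0.732 (permutation p = 0.00555, adjusted p = 0.0624) and Spearman's correlation = 0.699 (p = 0.0142, adjusted p = 0.160). On TMM-scaled CPM r was 0.680 for that pair and 0.521 for Rap1b with Rapgef5. Rap1a and Rap1b had r = 0.633 (permutation p = 0.0295, adjusted p = 0.166) and Spearman's correlation = 0.671 (p = 0.0194, adjusted p = 0.175), and r = 0.685 without the 2 farthest libraries.

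The promoter windows of these 3 genes, from 250 bases before to 50 bases after the start in RefSeq GRCm38.p6, are shown because the genes varied together. Capitals mark the GC box GGGCGG and the ETS site CCGGAAG, searched on both strands. The windows are written 5′ to 3′ on the gene's strand and lie at chr7:45627287-45627586 on the plus strand for Rasip1, chr19:5663658-5663957 on the minus strand for Sipa1 and chr2:29619470-29619769 on the plus strand for Rapgef1.

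Rasip1: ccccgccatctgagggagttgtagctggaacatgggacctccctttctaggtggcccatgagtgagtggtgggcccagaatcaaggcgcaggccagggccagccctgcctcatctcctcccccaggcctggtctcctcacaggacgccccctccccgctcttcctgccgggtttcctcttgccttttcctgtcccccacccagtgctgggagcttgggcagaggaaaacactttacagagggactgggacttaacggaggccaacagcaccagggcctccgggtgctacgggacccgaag

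Sipa1: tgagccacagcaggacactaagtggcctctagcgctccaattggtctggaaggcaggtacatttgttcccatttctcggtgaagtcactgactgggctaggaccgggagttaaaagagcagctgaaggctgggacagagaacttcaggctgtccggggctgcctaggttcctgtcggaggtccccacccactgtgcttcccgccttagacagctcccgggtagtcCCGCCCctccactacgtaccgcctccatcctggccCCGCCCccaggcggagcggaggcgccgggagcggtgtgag

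Rapgef1: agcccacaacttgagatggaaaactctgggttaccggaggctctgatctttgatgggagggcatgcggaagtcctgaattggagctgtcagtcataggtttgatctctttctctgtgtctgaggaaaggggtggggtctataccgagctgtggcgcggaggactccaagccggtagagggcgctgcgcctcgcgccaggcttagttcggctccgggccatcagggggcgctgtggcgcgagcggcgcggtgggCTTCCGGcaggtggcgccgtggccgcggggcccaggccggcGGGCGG

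The Sipa1 window held 2 GC boxes, and the Rapgef1 window held 1 GC box and 1 ETS site. The Rasip1 window held neither. A GC box occurred in 35.7% and the ETS site in 8.86% of the 32851 windows of this length. The cyclic AMP response element TGACGTCA, in 1.79% of windows, was in none of the 3 and occurred once in the Rap1b window. No motif searched was therefore common to the 3 genes. Windows were matched for 9 of the 10 members.

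Each member's nearest patterns among 12260 genes with a mean of at least 1 FPKM were found by Pearson's r of log2(FPKM + 1) over the 12 libraries. These are descriptions picked from many genes. The closest to Rap1a were Nedd1 (r = 0.919), Crtap (0.917) and Nuak2 (0.911), and to Rap1b they were Dazap2 (0.905), Usp32 (0.900) and Fam91a1 (0.896). For Rapgef1 they were Tns2 (r = 0.951), Kpna1 (0.930) and Tacc2 (0.912), for Rapgef3 Prkg2 (0.936), Fmod (0.927) and Rora (0.925), and for Rapgef5 Tmcc2 (0.962), Jdp2 (0.951) and Pxdc1 (0.951). Rapgef4 had the weakest neighbours, Pard3b (r = 0.859), Lrrc8b (0.809) and Slco2a1 (0.807). Rap1gap was closest to Klc2 (r = 0.955), Zfp568 (0.944) and Rara (0.936), and Sipa1 to Adh1 (0.955), Itga5 (0.945) and Ccnd2 (0.942). Rasip1 was closest to Arhgap23 (r = 0.957), Smg9 (0.947) and Ncaph2 (0.947). Apbb1ip was closest to Parvg (r = 0.897), Rnf19b (0.889) and C1qa (0.863), and C1qa is in the macrophage list.

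The rest of the Rap1 pathway was read from 6 lists of 62 genes, 60 of them listed and tested. None was called in any comparison. For LPS against control 10 of 60 had an unadjusted p under 0.05 and were higher, and 2 were lower, where 5.52% and 1.62% of all genes did so. Higher by estimate were Itgam and Itgb2, which together form the leukocyte integrin Mac-1, and Fyb, an adaptor that works with RIAM in T cells. Itgam averaged 4.00 ± 0.460 FPKM in LPS and 2.04 ± 0.427 FPKM in control lungs (SD, n = 3; log2 fold change 1.03 ± 0.24, SE; adjusted p = 0.252 by edgeR). Fyb averaged 5.53 ± 0.470 FPKM in LPS and 3.22 ± 0.268 FPKM in control lungs (0.88 ± 0.26, adjusted p = 0.480 by edgeR). Itgb2 averaged 26.8 ± 13.8 FPKM in LPS and 12.8 ± 4.21 FPKM in control lungs (1.07 ± 0.33, adjusted p = 0.509 by edgeR). These are leukocyte genes, and the part in these values of the leukocyte markers, whose sums are given above, was not tested. Tln2, a talin, at −0.63 ± 0.25, and Plce1, a phospholipase with a Rap exchange domain, at −0.38 ± 0.17, were lower by estimate. Of the 13 other exchange factors and adaptors, 12 were lower by estimate in LPS than in control lungs, with a median of −0.12, and 7 of 8 adhesion receptors were higher, with a median of 0.38.

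Between LPS+bLF and LPS lungs, 0 of 60 pathway genes were higher and 5 were lower at an unadjusted p under 0.05, where 3.27% and 3.65% of all genes did so. Itgam averaged 2.29 ± 0.493 FPKM in LPS+bLF and 4.00 ± 0.460 FPKM in LPS lungs (log2 fold change −0.81 ± 0.24, adjusted p = 0.689 by edgeR). Vav2, an exchange factor that Rap1 can bind, averaged 4.58 ± 1.13 FPKM in LPS+bLF and 7.13 ± 1.39 FPKM in LPS lungs (−0.66 ± 0.19, adjusted p = 0.689 by edgeR). Itgb1, the integrin β1 chain, averaged 51.3 ± 7.43 FPKM in LPS+bLF and 67.9 ± 6.86 FPKM in LPS lungs (−0.41 ± 0.15, adjusted p = 0.689 by edgeR). In the same comparison 8 of 8 macrophage markers were lower by estimate (median −0.59) and 7 of 8 neutrophil markers (median −0.82). Of these, 4 and 2 had an unadjusted p under 0.05 by edgeR. The neutrophil markers summed to 1488, 263 and 316 FPKM in the LPS lungs and 331, 367 and 296 FPKM in the LPS+bLF lungs. Only LPS replicate 1 thus lay above every LPS+bLF library. The part of the macrophage and neutrophil markers in the values of Itgam, Vav2 and Itgb1 was not tested. Vav2 and Itgam also had the smallest p values of the lists in the interaction, at −0.73 ± 0.26 and −0.89 ± 0.34, with adjusted p of 1.00 by edgeR.

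Between LPS+bLF and control lungs 2 pathway genes were higher and 1 was lower at an unadjusted p under 0.05, where 2.63% and 2.18% of all genes did so. They were Fermt3, the kindlin of blood cells, at 0.70 ± 0.22, Fyb at 0.73 ± 0.26, and Raph1 (lamellipodin, the paralogue of RIAM) at −0.80 ± 0.27, each with an adjusted p of 0.832 by edgeR. Raph1 averaged 1.79 ± 0.450 FPKM in LPS+bLF and 2.94 ± 0.409 FPKM in control lungs, so the estimates for the 2 paralogues, Raph1 and Apbb1ip, had opposite signs in this comparison. Fyb at 0.64 ± 0.26 and Raph1 at −0.59 ± 0.27 were also the pair named for LPS+bLF against bLF (adjusted p = 1.00 by edgeR). For bLF against control only Stk4, a kinase downstream of the Rap1 effector RASSF5, had an unadjusted p under 0.05, at 21.5 ± 1.02 FPKM in bLF and 27.6 ± 4.33 FPKM in control lungs (−0.35 ± 0.13, adjusted p = 1.00 by edgeR). All 9 adenylyl cyclases, which make the cyclic AMP that opens Epac, were lower by estimate in LPS+bLF than in control lungs, with a median of −0.27 and none at an unadjusted p under 0.05.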

How the data were processed

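Per the labels' protocols, polyadenylated lung RNA of 12 mice was sequenced. Per the submitters' processing notes, the tools were HISAT2 2.1.0 and RSEM 1.2.8 and the build mm10, without their roles. Annotation, strandedness and filters are not given in the sources used here. Per the file headers, the deposited files give a count and an FPKM per gene. Of the deposited counts 4.1 to 5.9% per library were fractional, so they were treated like RSEM's expected counts and rounded. The members and lists were chosen with earlier results of these data known.

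Genes reaching 0.5 FPKM in 3 or more libraries were fitted together (edgeR 4.0.16 quasi-likelihood, TMM, 4 group means, R 4.3.3), with Benjamini-Hochberg adjustment over 13735 genes within a comparison and a threshold of 0.05. Tests were two-sided. The SE and 95% interval come from the F statistic of that fit. DESeq2 1.42.0, limma 3.58.1 on log2(FPKM + 1), other scalings and filters, a replicate block and each library left out were alternatives. Correlation p came from 100000 permutations. A count of 0 leaves room for 3 counts, or 0.168 to 0.179 CPM, by counting error only. On simulated LPS against control counts of 13735 genes, edgeR recovered 7% of genes changed by a log2 fold of 1 and 66% of those changed by 2 with 5 false calls, and DESeq2 recovered 24% and 84% with 34 false calls. All 10 members were named throughout. Other pathway genes were named where called, or else the up to 3 per direction with the smallest unadjusted p under 0.05 and a mean of at least 1 FPKM. Coordinates and promoters are RefSeq GRCm38.p6, and transcripts GENCODE M21 (GRCm38).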

Additional observations from a re-analysis of the deposited data

How the results depend on the processing

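No member was called under any alternative or omission, where the smallest adjusted p was 0.371. The count of all called genes, 0 in each edgeR comparison, moved under DESeq2 to 139 for LPS against control, 1 for bLF against control, 13 for LPS+bLF against control, 7 for LPS+bLF against LPS, 2 for LPS+bLF against bLF and 1 for the interaction. It was 2 for LPS against control with limma at a pseudocount of 1. Omissions gave 0 to 25 for LPS against control and 0 to 2 for LPS+bLF against LPS, the highest of each without LPS replicate 1. Without LPS replicate 1, LPS+bLF replicate 2 and LPS+bLF replicate 3 together, chosen after seeing the data, it was 10 for LPS against control. That omission leaves 1 LPS+bLF library, assumed to vary like the other groups, so the values it gives for LPS+bLF follow that library. The causes were not tested. With a replicate block 0 genes were called in each comparison. Same-numbered libraries of different groups deviated together at r over 0.1 in 7 of 18 pairs, and differently numbered ones in 15 of 36. Same-numbered pairs among control, LPS and bLF were all positive, with r from 0.00701 to 0.576. Same-numbered pairs with LPS+bLF ran from −0.709 to 0.104. The labels state no pairing, and whether the numbers mark one was not tested.

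Some estimates changed sign, all of them uncalled in each setting run. With all 12 libraries these lay within 0.0525 of 0 on the log2 scale. With RLE scaling, Rapgef1 was 0.00150 for LPS+bLF against control, Rap1gap was −0.00109 for LPS+bLF against LPS. With upper-quartile scaling, Rap1a was −0.0180 and Sipa1 was −0.0137 for LPS against control, Rapgef5 was −0.0101 for bLF against control, Rap1gap was −0.0297 for LPS+bLF against LPS, Rap1a was −0.0287 for LPS+bLF against bLF. With DESeq2, Rapgef1 was 0.00132 for LPS+bLF against control, Rap1gap was −0.00175 for LPS+bLF against LPS. With limma at a pseudocount of 1, Rap1a was −0.0251 and Sipa1 was −0.0227 for LPS against control, Rapgef4 was 0.00130 for LPS+bLF against LPS, Rap1a was −0.0166 for LPS+bLF against bLF, Rap1a was 0.00846 for the interaction. With limma at a pseudocount of 0.1, Rap1a was −0.0258 and Sipa1 was −0.0226 for LPS against control, Rapgef4 was 0.00496 for LPS+bLF against LPS, Rap1a was −0.0170 for LPS+bLF against bLF, Rap1a was 0.00874 for the interaction. With a filter at a mean of 2 FPKM, Rapgef5 was −4.31e-05 for bLF against control, Rap1gap was −0.00487 for LPS+bLF against LPS. With only the groups compared in the fit, Rap1gap was −0.0118 for LPS+bLF against LPS. With the 3 libraries left out together, Rapgef3 was −0.368, Rapgef5 was 0.0331, Sipa1 was −0.111 and Rasip1 was −0.167 for LPS against control, Rapgef3 was 0.327, Rapgef4 was 0.288 and Rap1gap was −0.0907 for LPS+bLF against LPS, Rap1a was 0.0493, Rapgef1 was 0.0246 and Rapgef3 was 0.0671 for the interaction.

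With each library left out in turn, the log2 estimates that changed sign ran between these values. LPS against control had Rapgef1 −0.197 to 0.0430, Rapgef3 −0.368 to 0.385, Rapgef4 −0.458 to 0.110, Rapgef5 −0.505 to 0.0331, Rap1gap −0.0352 to 0.387, Sipa1 −0.111 to 0.181 and Rasip1 −0.167 to 0.429. The bLF against control comparison had Rap1a −0.139 to 0.0137, Rap1b −0.191 to 0.00986 and Rapgef5 −0.204 to 0.194. LPS+bLF against control had Rapgef1 −0.0828 to 0.0627 and Rapgef3 −0.266 to 0.0870. LPS+bLF against LPS had Rapgef1 −0.0757 to 0.192, Rapgef3 −0.538 to 0.243, Rapgef4 −0.320 to 0.275, Rap1gap −0.223 to 0.173, Sipa1 −0.0175 to 0.239, Rasip1 −0.0644 to 0.418 and Apbb1ip −0.211 to 0.157. LPS+bLF against bLF had Rap1a −0.0679 to 0.0876, Rapgef4 −0.208 to 0.101, Sipa1 −0.152 to 0.0272 and Rasip1 −0.284 to 0.0269. The interaction had Rap1a −0.0888 to 0.0685, Rapgef1 −0.200 to 0.0546, Rapgef4 −0.168 to 0.413, Sipa1 −0.240 to 0.0483 and Rasip1 −0.536 to 0.0558. The difference in Rap1b share for bLF against control, −0.150 percentage points, was 0.0236 from CPM and ran from −1.48 to 0.747 with libraries left out.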
